A study of Mus musculus with 2 samples.

Results

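The genes described here encode the nuclear subunits of the mitochondrial respiratory chain and of ATP synthase, in cultured mouse erythroblasts. They were picked by gene symbol from rows of the deposited expression table, as a set chosen with earlier results of these data known. The rule takes Nduf followed by a, b, c, s or v and a number, and Sdha to Sdhd. It also takes symbols that begin with Uqcr, Cox4 to Cox8 or Atp5. The rule found 84 of 25791 rows, and 79 of them encode structural subunits. The other members are Ndufa4l2, a relative of Ndufa4, the supercomplex factor gene Cox7a2l, Cox4nb, a neighbour of Cox4i1 now named Emc8, and Atp5s and Atp5sl, now named Dmac2l and Dmac2. RNA was sequenced from Extensively Self Renewing Erythroblasts (ESREs), early-stage red cell precursors able to divide for long periods ex vivo, and the labels give their genetic background as C57/bl6. The maturation group was taken 1 day into maturation, and the expansion group was taken while the cells proliferated. Derivation and maturation followed a published procedure, which the labels cite without giving the media, and the labels name no other treatment or allele. The series title mentions mice with a β-Yac transgene, and the sample labels do not say whether these cells carried it. The study design states that each condition was sampled in duplicate, but the table holds 1 value per gene and group, so no spread between replicates and no test was possible, and every difference below is a description of 2 values.

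The respiratory chain sits in the inner mitochondrial membrane. Complex I takes electrons from NADH and complex II takes them from succinate, ubiquinone and cytochrome c carry them on through complex III to complex IV, which reduces oxygen, and ATP synthase uses the resulting proton gradient to make ATP. Most subunits are encoded in the nucleus and the rest in mitochondrial DNA. In maturing erythroblasts mitochondria also supply heme synthesis, and in mammals they are removed before the red cell is complete.

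Values are FPKM, by definition the fragments of a gene divided by its transcript length and by the library's mapped total, so levels of different genes are on a scale per length. Whether the libraries were scaled in another way is unknown. Differences are log2 ratios of FPKM + 1, maturation over expansion, which understate the change of low genes. A row was counted as expressed at an FPKM of at least 1 in at least 1 group, and 9263 rows were. The median log2 ratio of those rows was -0.25, so ratios are also read against that shift. Rows of small RNAs held 25.5% of the summed FPKM in maturation and 17.6% in expansion, and globin rows held 7.58% in maturation and 1.77% in expansion. The depth of the libraries is unknown. Of 10 erythroblast marker genes, 10 reached an FPKM of 1 in maturation and 8 in expansion, and their summed FPKM was 13348 in maturation and 3093 in expansion. Mast cell and basophil markers summed to 2.54 FPKM in maturation and 20.6 in expansion over 6 genes. An FPKM of 1 was reached by 1 of them in maturation and 3 in expansion, and 2 were listed at 0 in maturation and 1 in expansion. Megakaryocyte markers summed to 4.13 FPKM in maturation and 22.8 in expansion over 6 genes, of which 1 reached an FPKM of 1 in maturation and 3 in expansion, while 1 was listed at 0 in maturation and 0 in expansion. Macrophage markers summed to 0.596 FPKM in maturation and 1.34 in expansion over 5 genes, of which 0 reached an FPKM of 1 in maturation and 1 in expansion, with 1 listed at 0 in each group. The part of these other cell types in the results was not tested.

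The respiratory genes held nearly the same share of the summed FPKM of all rows, small RNA and globin rows included, in both conditions. The members summed to 3438 FPKM in maturation and 3408 FPKM in expansion, which was 0.825% of all rows in maturation and 0.829% in expansion. After rescaling without small RNA and globin rows, each complex summed higher in maturation. The ratios of maturation over expansion then ran from 1.09 for complex II to 1.248 for complex I. Of the 84 members 78 were expressed, 77 of them in both groups, and 1, Atp5sl, passed in expansion alone. The 6 below 1 FPKM in both groups were the tissue isoforms Cox4i2, Cox6a2, Cox7a1, Cox7b2, Cox8b and Cox8c. Across the expressed members the log2 level in maturation and in expansion had a Pearson correlation of 0.98 (n = 78 genes from the same tables, a description). Levels spanned 0.693 FPKM for Atp5sl to 146 FPKM for Atp5b in maturation, and 1.07 FPKM for Atp5s to 152 FPKM for Atp5b in expansion.

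**Figure D1:**
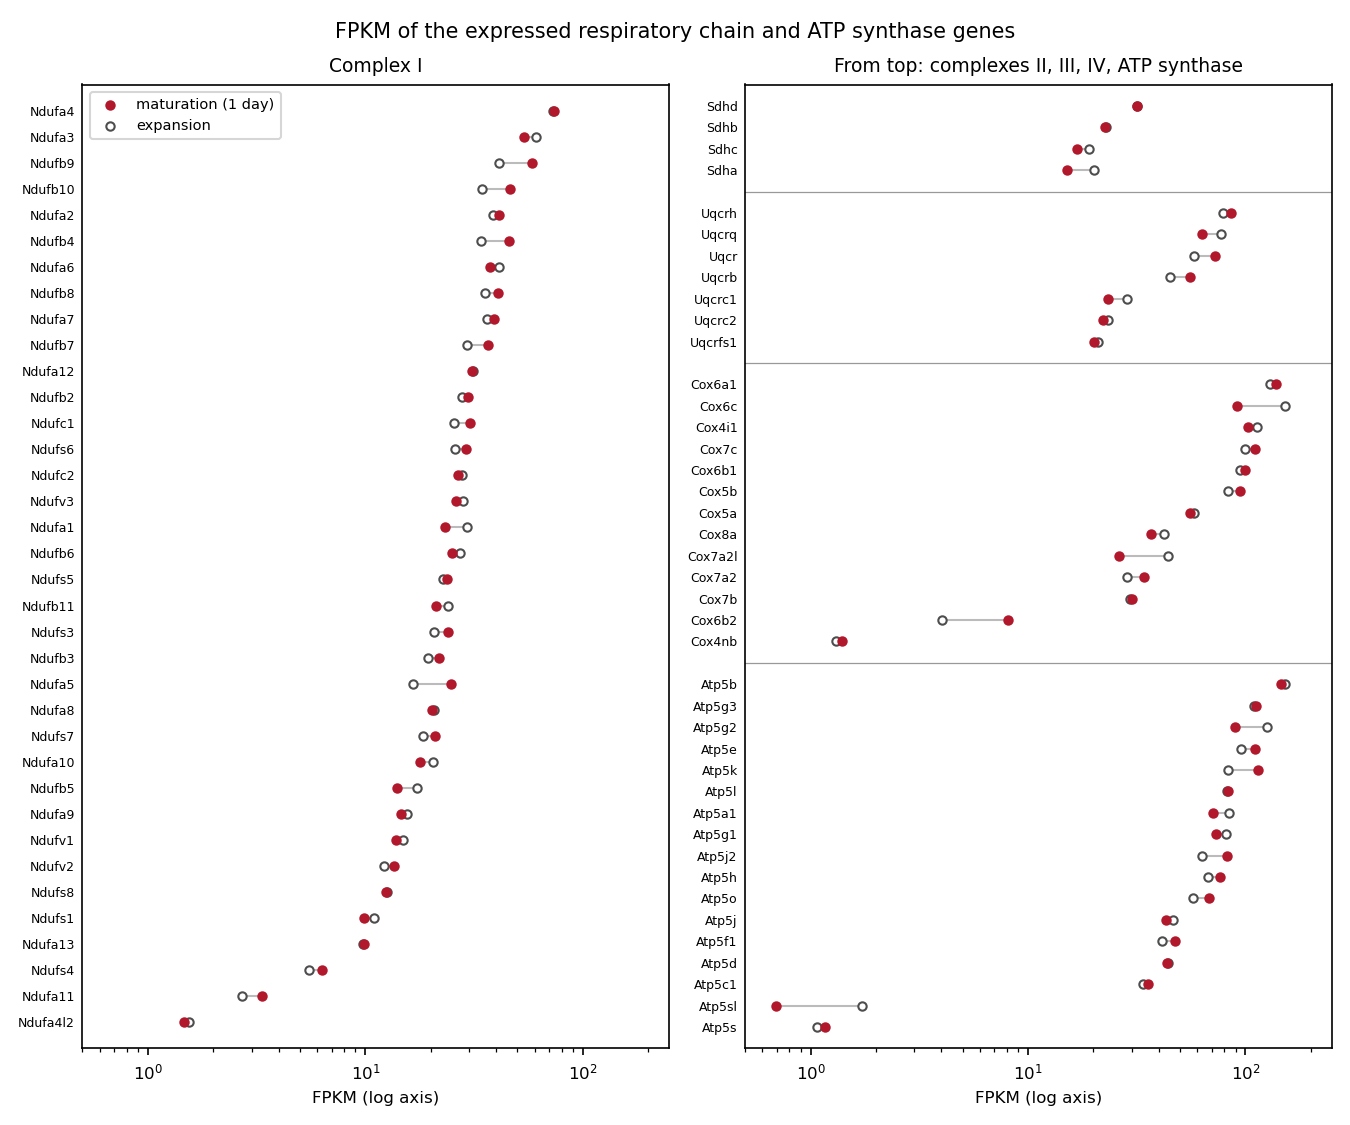
FPKM on a log axis of 77 expressed members in maturation (filled) and expansion (open), 1 value per group, complex I on the left and the other complexes on the right, ordered within a complex by level. Most pairs of points lie close together, and the widest gaps are those of Atp5sl, Cox6b2, Cox6c and Cox7a2l.

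Few members differed by much between the conditions. As a descriptive bound, a log2 ratio of 0.32 in size was used, which is 25% higher or 20% lower in maturation for FPKM + 1. Plain ratios of FPKM can pass these sizes inside the bound, as for Uqcr (1.251-fold) and Ndufa1 (0.795-fold). Of the 78 expressed members 65 lay within this bound, 7 were past it on the higher side in maturation and 6 on the lower side. Among all expressed rows 11.2% were past the bound and higher and 42.0% past it and lower, so the share of members that were lower, 7.69%, was below the background and the share that were higher, 8.97%, was near it. At 2-fold on the same scale there were 0 members, against 3.13% of all expressed rows that were higher and 6.70% that were lower. The members had higher levels, with a median mean FPKM of 31.5 against 3.93 over all expressed rows. The part of level in these shares was not tested. The members' median log2 ratio was 0.01, with 42 above 0 and 36 below, while 68 of them lay above the median of all expressed rows.

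The split between higher and lower members depends on the scaling. With the median of the expressed rows set to 0 (centring), 31 members were past the bound and higher and 3 lower, beside 20.8% of all expressed rows that were higher and 21.3% that were lower. After rescaling each group without small RNA and globin rows, 30 members were higher and 3 lower, beside 18.6% of all expressed rows that were higher and 25.4% that were lower. The members past the bound on the lower side as deposited and under both scalings were Cox6c, Cox7a2l and Atp5sl. A member with a deposited log2 ratio between -0.25 and 0 changes its sign under centring. In bulk RNA, fewer cells of a type and less RNA per cell cannot be told apart, and a share of the total cannot give an amount per cell.

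Complex I is the largest of the assemblies, and its 37 members were all expressed. Their median log2 ratio was 0.02, and their summed FPKM was 980 in maturation and 933 in expansion. The highest level was that of Ndufa4, now counted as a complex IV subunit, at 73.7 FPKM in maturation and 72.9 FPKM in expansion. The lowest was Ndufa4l2 at 1.46 FPKM in maturation and 1.55 FPKM in expansion.

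The 7 core subunits of complex I, which carry the flavin and the iron-sulfur clusters or line the ubiquinone site, had a median log2 ratio of -0.01. Ndufs1, the large iron-sulfur subunit, stood at 9.88 FPKM in maturation and 11.0 FPKM in expansion. Ndufv1, which binds NADH, stood at 13.9 FPKM in maturation and 14.8 FPKM in expansion. Ndufs3, Ndufs7 and Ndufv2 lay above 0, with log2 ratios of 0.21, 0.18 and 0.15. Core subunits therefore lay on both sides of 0 as deposited, while after centring or rescaling Ndufs1 and Ndufv1 also lay above 0.

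Among accessory subunits, the 10 Ndufb genes, whose products sit in the membrane arm, had a median log2 ratio of 0.17, with 7 above 0. Ndufb9 stood at 58.4 FPKM in maturation and 41.2 FPKM in expansion, a log2 ratio of 0.50. Ndufb4 stood at 45.6 FPKM in maturation and 34.0 FPKM in expansion, and Ndufb10 stood at 46.0 FPKM in maturation and 34.4 FPKM in expansion, each with a log2 ratio of 0.41. Ndufb5 was the lowest of the Ndufb genes, at 14.0 FPKM in maturation and 17.2 FPKM in expansion, a log2 ratio of -0.28. Ndufb7 and Ndufb8 lay above 0 with log2 ratios of 0.31 and 0.19, and Ndufb6 and Ndufb11 lay below with -0.11 and -0.18. The 18 other accessory members had a median of -0.01, with 9 above 0 and 9 below, and levels from 3.33 FPKM for Ndufa11 to 53.9 FPKM for Ndufa3 in maturation and from 2.72 FPKM to 60.96 FPKM for the same genes in expansion.

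Ndufa5, an accessory subunit of the matrix arm, had the highest log2 ratio of complex I, 0.55. It stood at 24.7 FPKM in maturation and 16.6 FPKM in expansion, and its locus is on chromosome 6 from 24468666 to 24477687 (mm9). Ndufa1, a small membrane subunit encoded on the X chromosome, stood at 23.3 FPKM in maturation and 29.2 FPKM in expansion, a log2 ratio of -0.32, just inside the bound. Within complex I the bound was passed on the higher side by 4 members, Ndufa5, Ndufb9, Ndufb4 and Ndufb10.

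Complex II, succinate dehydrogenase, also serves the citric acid cycle and has no subunit encoded in mitochondrial DNA. Its 4 members had a median log2 ratio of -0.09 as deposited, which became 0.15 after centring and 0.14 after rescaling. Sdha, the flavoprotein that oxidises succinate, stood at 15.0 FPKM in maturation and 20.1 FPKM in expansion, a log2 ratio of -0.40. Sdhb, the iron-sulfur subunit, stood at 22.7 FPKM in maturation and 22.9 FPKM in expansion. Of the membrane anchors, Sdhc stood at 16.9 FPKM in maturation and 19.2 FPKM in expansion, and Sdhd stood at 31.7 FPKM in maturation and 31.6 FPKM in expansion. Sdha was thus the complex II gene with the widest gap between the groups, and Sdhb and Sdhd had nearly equal values.

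Complex III passes electrons from ubiquinol to cytochrome c. Its 7 members had a median log2 ratio of -0.05 as deposited, 0.19 after centring and 0.18 after rescaling. The symbol rule does not reach every subunit of complex III, so the sign of so small a deposited median depends on the rule. Cyc1, cytochrome c1, is left out and had a log2 ratio of 0.20 as deposited. As deposited 0 of them passed the bound, while Uqcr, Uqcrb and Uqcrh passed it on the higher side after either scaling. The core proteins stood below 0 as deposited, with Uqcrc1 at 23.4 FPKM in maturation and 28.5 FPKM in expansion and Uqcrc2 at 22.0 FPKM in maturation and 23.2 FPKM in expansion, though after centring Uqcrc2 lay above 0. Uqcrfs1, the Rieske iron-sulfur protein, stood at 20.1 FPKM in maturation and 20.9 FPKM in expansion. Of the small subunits, Uqcr (now Uqcr11) stood at 72.5 FPKM in maturation and 58.0 FPKM in expansion, a log2 ratio of 0.32 just inside the bound. Uqcrb stood at 55.6 FPKM in maturation and 45.1 FPKM in expansion, and Uqcrh at 86.0 FPKM in maturation and 78.7 FPKM in expansion. Uqcrq was the small subunit that went the other way, at 63.3 FPKM in maturation and 77.1 FPKM in expansion, a log2 ratio of -0.28. The locus of Uqcr in the table overlaps those of Mbd3 and Mex3d.

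**Figure D2:**
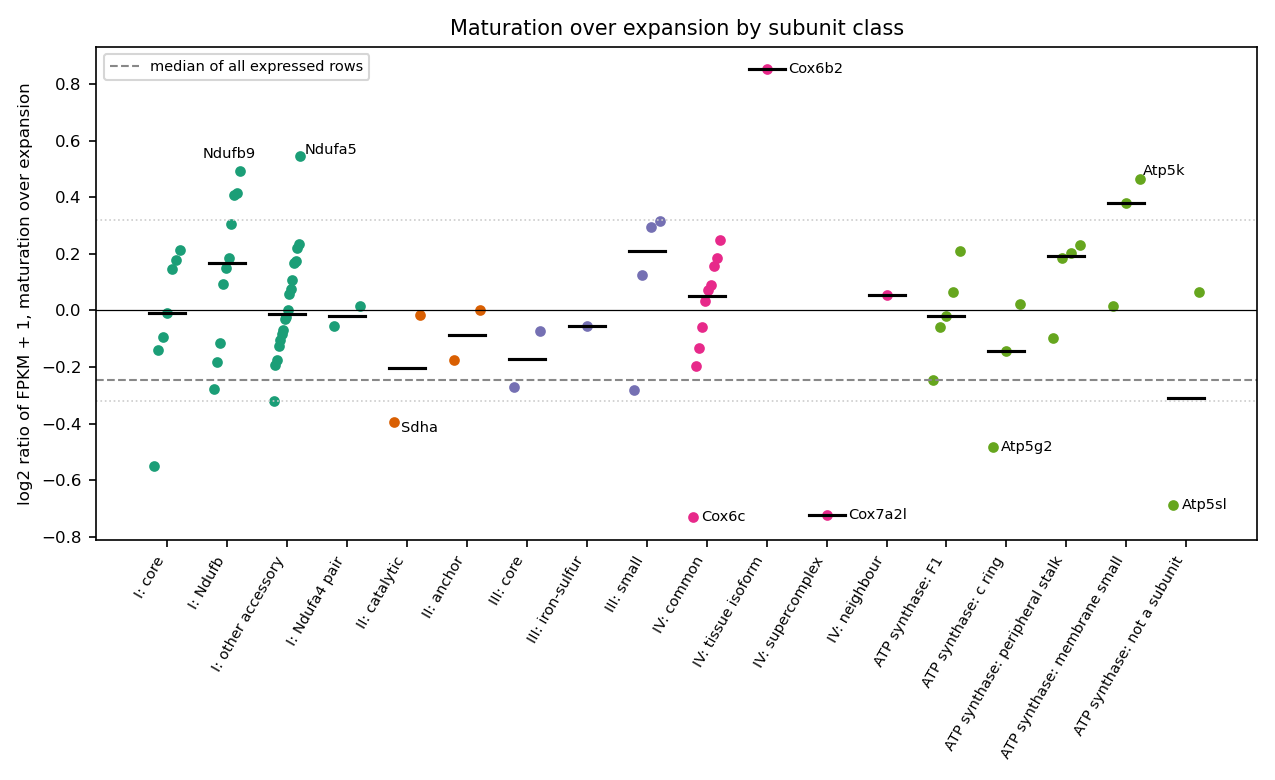
Log2 ratio of FPKM + 1, maturation over expansion, of each expressed member by subunit class, with a bar at each class median, a dashed line at the median of all expressed rows (-0.25) and dotted lines at 0.32 in either direction. Most points lie between the dotted lines, and Cox6b2, Cox6c and Cox7a2l are farthest from 0.

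Complex IV, cytochrome c oxidase, held the highest and the lowest log2 ratio of the set as deposited, while after rescaling the lowest was that of Atp5sl. The 13 expressed members of complex IV, of 19, had a median log2 ratio of 0.05 and summed to 828 FPKM in maturation and 878 FPKM in expansion, a direction that turns after either scaling. That median is the value of Cox4nb, which is no oxidase subunit, and over structural subunits only the median was 0.07. Cox6c, a small membrane subunit, had the lowest deposited log2 ratio of the expressed members, -0.73, though by plain ratio of FPKM Atp5sl (0.401-fold) and Cox7a2l (0.597-fold) were lower. Cox6c stood at 91.0 FPKM in maturation and 152 FPKM in expansion, a wider gap than that between the complex IV sums. Its locus is on chromosome 15 from 35861731 to 35868001 (mm9). The plain ratio of Cox6c was 0.6-fold, with no error attached.

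Cox7a2l, known as a supercomplex factor gene, stood at 26.2 FPKM in maturation and 43.8 FPKM in expansion, a log2 ratio of -0.72. Whether its product was active in cells of this background cannot be read from RNA. The other common subunits lay between -0.20 for Cox8a and 0.25 for Cox7a2. Cox8a stood at 36.9 FPKM in maturation and 42.4 FPKM in expansion, and Cox7a2 stood at 34.1 FPKM in maturation and 28.5 FPKM in expansion. Cox4i1 stood at 103 FPKM in maturation and 113 FPKM in expansion, and Cox5b stood at 94.5 FPKM in maturation and 83.0 FPKM in expansion. Cox5a, Cox7b, Cox6b1 and Cox7c had log2 ratios of -0.06, 0.03, 0.07 and 0.16. Cox6a1 had the highest level of complex IV in maturation at 137 FPKM, against 129 FPKM in expansion. Cox4nb, whose locus lies 177 bases from that of Cox4i1 in mm9 and which is no oxidase subunit, stood at 1.39 FPKM in maturation and 1.30 FPKM in expansion.

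Complex IV has alternative subunits that are used in particular tissues. Cox6b2, known from testis, had the highest log2 ratio of all members, 0.85, and stood at 8.06 FPKM in maturation and 4.01 FPKM in expansion. Its common counterpart Cox6b1 stood at 99.1 FPKM in maturation and 94.3 FPKM in expansion, so that Cox6b2 made up 7.52% of the summed FPKM of the pair in maturation and 4.08% in expansion. As a plain ratio of FPKM the Cox6b2 values were 2.01-fold apart, and after either scaling Cox6b2 was the member past 2-fold. The forms known from heart and skeletal muscle were low in both groups, with Cox6a2 at 0.138 FPKM in maturation and 0.105 FPKM in expansion and Cox7a1 at 0.424 FPKM in maturation and 0.804 FPKM in expansion. Cox4i2, known from lung, stood at 0.772 FPKM in maturation and 0.742 FPKM in expansion. Cox7b2 stood at 0.0151 FPKM in maturation and 0.0125 FPKM in expansion. Cox8b and Cox8c stood at 0.0552 and 0.0191 FPKM in maturation and were listed at 0 in expansion.

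ATP synthase had the highest summed level of the 5 assemblies, with 1199 FPKM in maturation and 1170 FPKM in expansion, and a median log2 ratio of 0.02 over 17 members. In the catalytic F1 head, Atp5b, the catalytic beta subunit, stood at 146 FPKM in maturation and 152 FPKM in expansion. Atp5a1, the alpha subunit, stood at 70.7 FPKM in maturation and 84.1 FPKM in expansion, and its locus in the table overlaps that of Pstpip2. Atp5e, the epsilon subunit, stood at 111 FPKM in maturation and 95.9 FPKM in expansion. The 5 head subunits had a median of -0.02, and the 4 of the peripheral stalk, which holds the head still, had a median of 0.19. Atp5d and Atp5c1, of the central stalk, had nearly equal values in the groups, with log2 ratios of -0.02 and 0.07. In the peripheral stalk, Atp5h and Atp5f1 had log2 ratios of 0.19 and 0.20, and Atp5j, whose locus overlaps that of Gabpa, had -0.10. Atp5o, of the same stalk, stood at 67.6 FPKM in maturation and 57.4 FPKM in expansion.

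The small membrane subunits e, f and g, which help ATP synthase to pair along the cristae, lay at or above 0. Atp5k, subunit e, stood at 115 FPKM in maturation and 82.8 FPKM in expansion, a log2 ratio of 0.46. Atp5j2, subunit f, stood at 82.4 FPKM in maturation and 63.0 FPKM in expansion, a log2 ratio of 0.38. Atp5l, subunit g, had nearly equal values, at 83.4 FPKM in maturation and 82.6 FPKM in expansion. Counting only RefSeq pseudogenes named by the member's symbol followed by -ps, Atp5k has 4 and Atp5l has 2, and 8 members have at least 1. Copies under other names were not counted, and reads from any such copies could not be told apart here.

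Subunit c forms the rotating ring and is encoded by 3 genes that give the same mature protein. Atp5g2 stood at 89.8 FPKM in maturation and 126 FPKM in expansion, a log2 ratio of -0.48, and its locus is on chromosome 15 from 102493299 to 102501478 (mm9). Atp5g1 stood at 73.3 FPKM in maturation and 81.0 FPKM in expansion. Atp5g3 had nearly equal values, at 112 FPKM in maturation and 110.0 FPKM in expansion. Atp5g2 made up 32.7% of the summed FPKM of the 3 genes in maturation and 39.7% in expansion, and Atp5g3 made up 40.6% in maturation and 34.7% in expansion. The gene with the highest level was therefore Atp5g3 in maturation and Atp5g2 in expansion. Together the 3 genes summed to 275 FPKM in maturation and 317 FPKM in expansion.

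**Figure D3:**
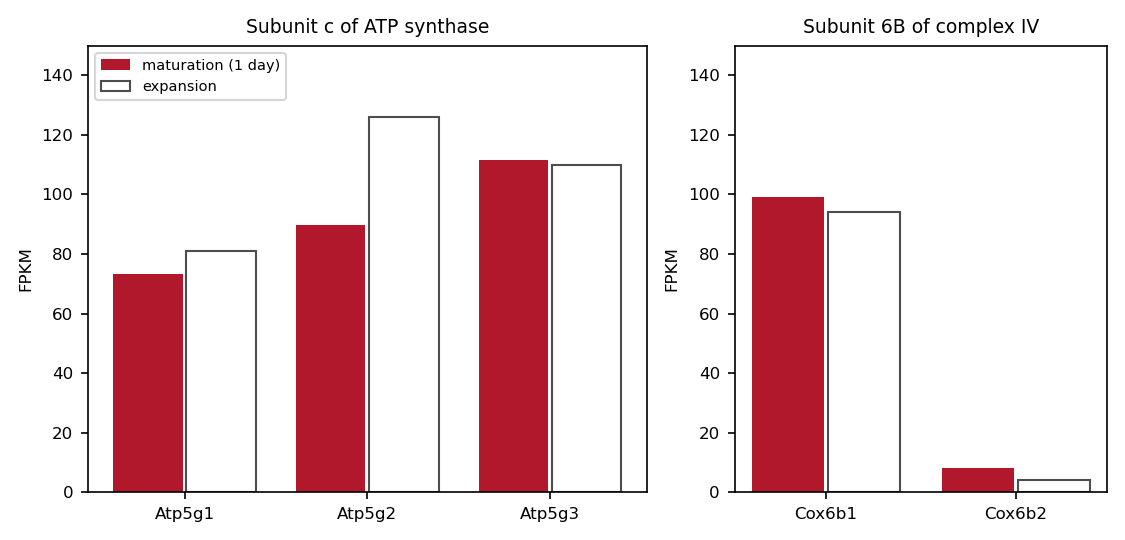
FPKM of the 3 genes for subunit c of ATP synthase (left) and of the gene pair for subunit 6B of complex IV (right), with maturation bars to the left of expansion bars, 1 value per group. Atp5g2 is lower in maturation, at 89.8 against 126 FPKM in expansion, and Cox6b2 is low beside Cox6b1 in both groups.

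Atp5s and Atp5sl, which are not subunits of the enzyme, had low values. Atp5s stood at 1.16 FPKM in maturation and 1.07 FPKM in expansion. Atp5sl stood at 0.693 FPKM in maturation and 1.73 FPKM in expansion, a log2 ratio of -0.69.

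Among the members, longer transcripts tended to have lower log2 ratios. Over 78 expressed members the Spearman correlation of the ratio with transcript length was -0.40, beside -0.05 over 7877 expressed rows with a length, as a description of genes that share libraries. Among rows with a mean FPKM of at least 10, members of up to 600 bases had a median log2 ratio of 0.10 (20 genes, 75.0% above 0), and other rows of that length had a median of 0.06 (105 rows, 53.3% above 0). Of those other rows 34 were histone genes, and without them the median was -0.19 with 31.0% above 0, a subset chosen after seeing the data. Members from 600 to 1000 bases had a median of 0.02 (25 genes), against -0.17 for 240 other rows. Members from 1000 to 1500 bases had a median of -0.01 (12 genes), against -0.18 for 268 other rows. Above 1500 bases the members' median was -0.17 (13 genes), the same as for 915 other rows, but 7.69% of the members (1 gene, Atp5f1) lay above 0, against 36.0% of the other rows. The medians of members up to 1500 bases therefore lay above those of other rows of like length, and among the longest the medians were equal while fewer members lay above 0. The part of transcript length in the members' ratios was not tested.

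**Figure D4:**
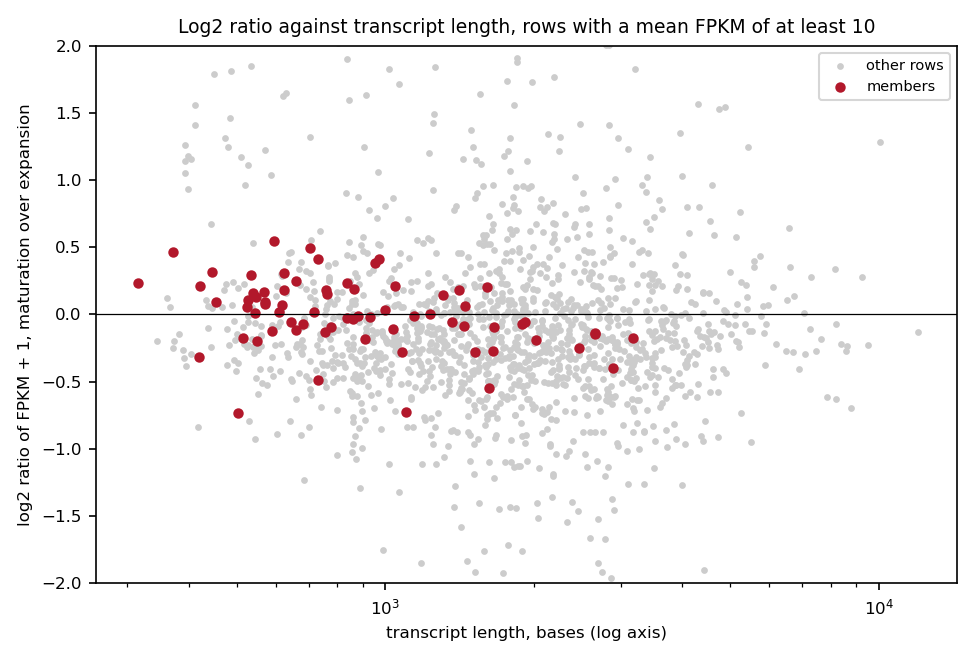
Log2 ratio of FPKM + 1, maturation over expansion, against transcript length in bases on a log axis, for members and for other rows with a mean FPKM of at least 10. The vertical axis is limited to 2 in either direction, which leaves out 64 other rows and 0 members, and the members' points slope down from short to long transcripts.

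The promoters of the members were searched for motifs of factors known to bind respiratory genes, over the 250 bases before and 50 after the start site in RefSeq (GRCm38.p6), on both strands. Of the members 65 had a promoter in the table. The NRF1 motif GCGCANGCG was present in 20 of them, 30.8%, against 18.0% of 6643 expressed genes and 7.03% of 27025 genes in all. The YY1 motif AANATGGC was present in 27.7% of members, against 12.5% of expressed genes and 6.96% of all genes, and 11 of the 18 members with it had a match after the start site. The ETS motif CCGGAAG was present in 24.6% of members, 24.9% of expressed genes and 9.93% of all genes. The SP1 motif GGGCGG was present in 41.5% of members, 69.7% of expressed genes and 38.2% of all genes. Split at a deposited log2 ratio of 0, which moves with the scaling, the NRF1 motif stood in 15 of 38 members above and 5 of 27 below, and the ETS motif in 11 of 38 above and 5 of 27 below. The YY1 motif stood in 10 of 38 members above and 8 of 27 below, and the SP1 motif in 13 of 38 above and 14 of 27 below. These differences were not tested. The matches are letters in a window and not measured binding.

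To show that the NRF1 letters occur in members on either side of 0, the 120 bases just before the start site are given for 5 genes, all on the minus strand and written 5′ to 3′ in the direction of the gene, with the motif and any overlapping match in capitals. They are Ndufa5 (chr6:24527691-24527810), Ndufb4 (chr16:37654369-37654488) and Atp5k (chr5:108434400-108434519), which were higher in maturation, and Sdha (chr13:74350241-74350360) and Atp5g2 (chr15:102671048-102671167), which were lower.
Ndufa5: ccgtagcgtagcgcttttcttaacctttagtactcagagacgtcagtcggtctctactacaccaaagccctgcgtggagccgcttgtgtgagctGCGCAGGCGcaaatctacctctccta
Ndufb4: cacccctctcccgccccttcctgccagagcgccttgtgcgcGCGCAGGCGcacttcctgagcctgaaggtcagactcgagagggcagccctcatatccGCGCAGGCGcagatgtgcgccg
Atp5k: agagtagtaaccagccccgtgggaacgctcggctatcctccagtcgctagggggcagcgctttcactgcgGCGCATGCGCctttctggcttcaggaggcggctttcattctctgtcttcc
Sdha: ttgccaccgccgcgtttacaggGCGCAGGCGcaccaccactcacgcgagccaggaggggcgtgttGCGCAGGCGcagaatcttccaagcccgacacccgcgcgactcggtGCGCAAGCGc
Atp5g2: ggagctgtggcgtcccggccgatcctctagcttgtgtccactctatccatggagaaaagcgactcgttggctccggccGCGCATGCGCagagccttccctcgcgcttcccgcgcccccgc
The stretch of Sdha held 3 matches, that of Ndufb4 held 2 and that of Ndufa5 held 1. In Atp5k and Atp5g2 the same palindrome GCGCATGCGC gave 2 overlapping matches, 1 on each strand, in genes whose log2 ratios were 0.46 and -0.48.

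Genes that build and supply these complexes were described from lists by role, on the deposited scale. The 44 expressed assembly genes had a median log2 ratio of -0.12, with 4 past the 0.32 bound and higher in maturation and 13 lower, 1 of them past 2-fold. The lower genes were 29.5% of this list, below the 42.0% of all expressed rows, and the higher ones 9.09%, beside 11.2%. Complex IV assembly genes had a median of -0.28 over 20 genes, 3 higher and 9 lower, and both the median and the 45% that were lower were near those of all expressed rows. Surf1, an assembly factor of complex IV, stood at 3.78 FPKM in maturation and 6.26 FPKM in expansion. Sco2, which delivers copper to the oxidase, was the gene past 2-fold, at 0.826 FPKM in maturation and 2.87 FPKM in expansion, and was named after its values were seen. Cmc2, in the table under the name 2310061C15Rik, went the other way, at 5.62 FPKM in maturation and 3.62 FPKM in expansion. Complex I assembly genes had a median of -0.10 (12 genes, 0 higher and 2 lower), complex II assembly genes -0.09 (4 genes, 0 past the bound) and complex III assembly genes 0.12 (4 genes, 0 higher and 1 lower).

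Of the ATP synthase assembly and regulation genes, which had a median of -0.08 over 4 genes, 1 was higher and 1 lower. Atpif1, the inhibitor of ATP hydrolysis by the enzyme and known to be needed for heme synthesis in zebrafish erythroblasts, stood at 194 FPKM in maturation and 134 FPKM in expansion, a log2 ratio of 0.53. Its level was above that of every member in maturation. Tmem70, which helps to assemble ATP synthase, stood at 4.16 FPKM in maturation and 6.41 FPKM in expansion. Subunits and carriers outside the symbol rule had a median of 0.12 over 5 genes, with Cyc1, cytochrome c1 of complex III, at 32.0 FPKM in maturation and 27.7 FPKM in expansion. Ubiquinone synthesis genes had a median of -0.08 over 8 genes, with 0 past the bound.

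Genes for the upkeep and transcription of mitochondrial DNA had the lowest median of the lists, -0.41 over 8 genes, with 1 higher (12.5%, beside 11.2% of all expressed rows) and 5 lower (62.5%, beside 42.0%). Tfb2m, a mitochondrial transcription factor, stood at 1.72 FPKM in maturation and 5.09 FPKM in expansion, a log2 ratio of -1.16, and was the gene of this list past 2-fold. Ssbp1, which binds single-stranded mitochondrial DNA, stood at 5.44 FPKM in maturation and 7.11 FPKM in expansion. Nuclear regulators had a median of 0.04 over 8 genes, with 1 higher and 2 lower. Among them Yy1 stood at 5.58 FPKM in maturation and 7.39 FPKM in expansion, and Hcfc1, a cofactor of several such regulators, stood at 11.4 FPKM in maturation and 8.84 FPKM in expansion. No row was found under the mt- symbols of the 13 subunits encoded in mitochondrial DNA, so these were not analysed here.

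**Figure D5:**
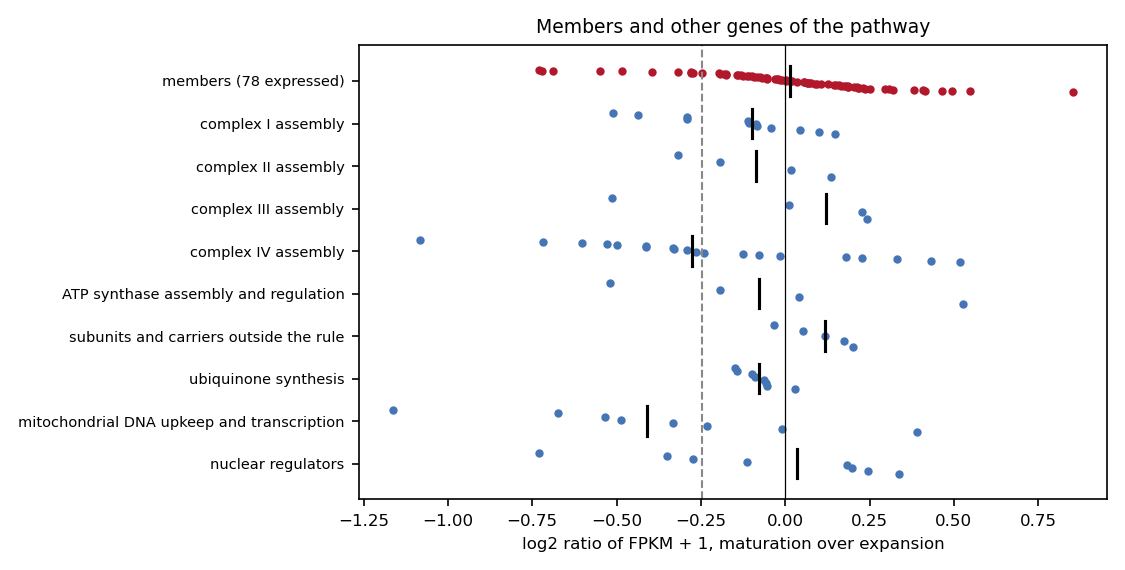
Log2 ratio of FPKM + 1, maturation over expansion, of the 78 expressed members (top row) and of the expressed genes of each list of assembly factors, carriers and regulators, with a black bar at each median and a dashed line at the median of all expressed rows (-0.25). The members centre near 0, and the medians of complex IV assembly (-0.28) and mitochondrial DNA genes (-0.41) lie left of the dashed line.

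The members were also set beside other gene families of the mitochondrion and the ribosome, without a test. The members' median log2 ratio of 0.01 stood beside -0.08 for 75 mitochondrial ribosomal protein genes, of which 11 were past the 0.32 bound and higher in maturation (14.7%) and 17 lower (22.7%). It stood beside -0.37 for 13 citric acid cycle genes, with 1 higher (7.69%) and 7 lower (53.8%), and -0.26 for 81 expressed cytosolic ribosomal protein genes, with 0 higher and 24 lower (29.6%). Over all expressed rows the median was -0.25, with 11.2% higher and 42.0% lower, so the median of the cytosolic ribosomal protein genes was near that background. Median transcript lengths were 838 bases for the members, 1226 for mitochondrial and 786 for cytosolic ribosomal proteins, and 2544 for the citric acid cycle. The median length of cytosolic ribosomal protein genes was near that of the members, and their median log2 ratio was lower. Their level was higher, with a median mean FPKM of 297 against 31.5 for the members. The part of length or level in these differences was not tested. The markers of mitochondrial content were lower in maturation as deposited, though Vdac1 lay above the median of all expressed rows. Among them were Tomm20, an import receptor, at 42.6 FPKM in maturation and 58.0 FPKM in expansion, and Vdac1, an outer membrane channel, at 27.4 FPKM in maturation and 31.0 FPKM in expansion. Cs, citrate synthase, stood at 28.6 FPKM in maturation and 44.1 FPKM in expansion. Bnip3l, a receptor for the removal of mitochondria from maturing red cells, stood at 14.5 FPKM in maturation and 12.3 FPKM in expansion. Pink1, a kinase that marks damaged mitochondria, stood at 1.93 FPKM in maturation and 2.57 FPKM in expansion.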

How the data were processed

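Per the labels' protocols, total RNA from a Qiagen kit went into NextFlex libraries. The authors deposited FPKM, with a single value for each gene in each group. The submitters' processing notes name Cuffdiff 2.0.2 and mouse build mm9. The aligner, annotation, strandedness, depth and merging of duplicates were not given in the sources used here. By definition FPKM divides by length and by library total, and under that division rows that hold many fragments lower all other values of a group. Whether another scaling between libraries was used is unknown. The shares of small RNA and globin rows given above are of summed FPKM, which weighs short rows more than fragments do. Their shares of the fragments are unknown, and their part in the other values was not tested.

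From these values log2 ratios of FPKM + 1, maturation over expansion, were computed for rows whose FPKM reached 1 in either group. The tools were Python 3.11.15, pandas 2.3.3, NumPy 2.4.6 and Matplotlib 3.10.9. Counts at 2-fold were checked on simulated data with large shifts, and counts at the 0.32 bound were not. Bounds of 0.32 on the log2 scale and of 2-fold are descriptive sizes. Gene starts, which the table counts from 0, were raised by 1. Transcript lengths are medians over GENCODE protein-coding transcripts with a RefSeq match on GRCm38. Promoters come from RefSeq on GRCm38.p6.

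The members and lists were chosen with earlier results of these data known. Named were the 3 highest and 3 lowest ratios of each complex among members with an FPKM of at least 5, all of complex II, the highest and lowest levels, the tissue isoforms, Ndufa5, Cox6c, members past the 0.32 bound, and from each other list the 2 largest ratios at an FPKM of at least 5; further members are given as examples of their class, and 1 member is counted but not reported here by itself. Loci of 16 members overlap another row. Alternatives were other pseudocounts, filters and scalings, structural subunits only, and means.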

Additional observations from a re-analysis of the deposited data

How the results depend on the processing

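Over 14 results and 8 alternatives, 94 values were recomputed: 65 stayed within 0.1 on the log2 scale or 1.5 times the count and 29 moved. A pseudocount of 0.1 brought 1 member, Atp5sl, past 2-fold. With the median of the expressed rows set to 0, the medians were 0.26 for all members and for complex I, 0.15 for II, 0.19 for III, 0.30 for IV and 0.27 for ATP synthase, 31 members were past the bound and higher and 3 lower, 1 was past 2-fold, and the summed FPKM ratios, maturation over expansion, were 1.247, 1.09, 1.23, 1.12 and 1.22 for complexes I to IV and ATP synthase. After rescaling without small RNA and globin rows, which brought the median of all rows to -0.05, the medians were 0.24 for all members, 0.26 for I, 0.14 for II, 0.18 for III, 0.28 for IV and 0.26 for ATP synthase, with 30 higher, 3 lower and 1 past 2-fold, and sums of 1.248, 1.09, 1.23, 1.12 and 1.22. With either scaling the medians of complexes II and III thus cross 0, and the summed FPKM ratios of complexes II and IV, 0.920 and 0.944 as deposited, cross 1. These shifts follow from the construction of both scalings. On the deposited scale, means in place of medians were 0.009 for complex III and -0.011 for complex IV. Each mean lay on the other side of 0 from its median, though both are counted among the 65 values that stayed. No paired analysis was possible because the table holds 1 value per group, and for the same reason no replicate could be left out. The depth is unknown, so counting error could not be given.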
